A study of Saccharomyces cerevisiae with 12 samples.

Results

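The comparison described here is the response of wild-type (WT) budding yeast to tangeretin: 3 arrays of WT cells with tangeretin (repeats 1 to 3) were set against 3 arrays of WT control cells (repeats 1 to 3), which makes 6 of the 12 arrays of the series. The tangeretin group was strain YCL1071 given 30 µM tangeretin in DMSO for 4 h at 30 °C, and the control group was the same strain given DMSO alone. DMSO was at 0.2% by volume in both. Both groups share the genotype MATα his3Δ1 leu2Δ0 met15Δ0 ura3Δ0 trp1Δ::HPH, the plasmid pRS414-GAL1-HO-TRP1, on which the GAL1 promoter drives the endonuclease gene HO, and a medium without tryptophan. The other 6 arrays hold the same treatments in strain YCL1098, an sgs1Δ::kanMX4 deletion of the RecQ helicase gene SGS1. They enter here in the detection filter, the normalization, the estimate of the spread and the adjustment for array brightness. They also enter in a test of whether responses differ between strains. The labels do not say whether the 3 repeats of a group were separate cultures, and the file headers give them 1 sample number, so the p-values may measure technical spread only. In bulk RNA, fewer cells that express a gene and less of its RNA per cell cannot be told apart.

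Tangeretin is a polymethoxylated flavone from citrus peel. Yeast meets many hydrophobic foreign compounds with the pleiotropic drug resistance network, in which the zinc-cluster transcription factors Pdr1 and Pdr3 switch on genes for transporters that pump such compounds out of the cell. The best known of these is Pdr5, an ATP-driven efflux pump of the plasma membrane.

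The arrays were 1-colour oligonucleotide arrays, on which the brightness of a probe (intensity, in arbitrary units) follows the amount of Cy5-labelled cDNA. After a filter on detection, 6211 genes were tested. Values below are quantile-normalized intensities that include an added offset of 50, changes are differences of their log2 values, tangeretin minus control, and a gene was called when the adjusted p of limma was under 0.05. SGS1, the gene deleted in the other strain, had raw intensities of 4 to 7 on the 6 sgs1Δ arrays and 108 to 169 on the 6 WT arrays. The defining markers of an α cell matched the labelled mating type in part: all 5 α markers were detected on all 6 WT arrays, but so were all 7 a-cell markers. The summed normalized intensity of the α markers was 11875 to 14281 with tangeretin and 13177 to 14694 in controls, and that of the a markers was 8685 to 9945 with tangeretin and 9303 to 10785 in controls. No marker of either list was called, and their part in the results was not tested. Of 6 meiotic markers 1 was called, NDT80, which was detected on 1 tangeretin array and 0 control arrays.

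The 6 arrays were unequally bright, and the difference ran with the treatment except on 1 array. Median raw intensities were 763.5, 938.5 and 810 on tangeretin arrays 1, 2 and 3, against 522, 533 and 795.5 on control arrays 1, 2 and 3. WT control 3 was thus as bright as the tangeretin arrays. The share of probes detected was higher on every tangeretin array than on any control array, with 92.8%, 94.2% and 93.6% on the tangeretin arrays against 88.5%, 89.2% and 92.2% on the control arrays. After normalization, control 3 still lay with the tangeretin arrays: its log2 values correlated across genes at 0.995 to 0.9965 with them and at 0.9914 to 0.9919 with controls 1 and 2, which correlated with each other at 0.9964. The first principal component, with 65.7% of the variance of the 6 arrays, gave scores of -2.63, -13.4 and -13.3 to the tangeretin arrays and 16.1, 17.0 and -3.70 to the control arrays. Controls 1 and 2 stood apart from the other 4 arrays. Most called genes named below are therefore also given by their change against control 3 alone, and the calls that held in the 6 fits that each leave out 1 WT array also by their change with array brightness as a covariate.

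**Figure D1:**
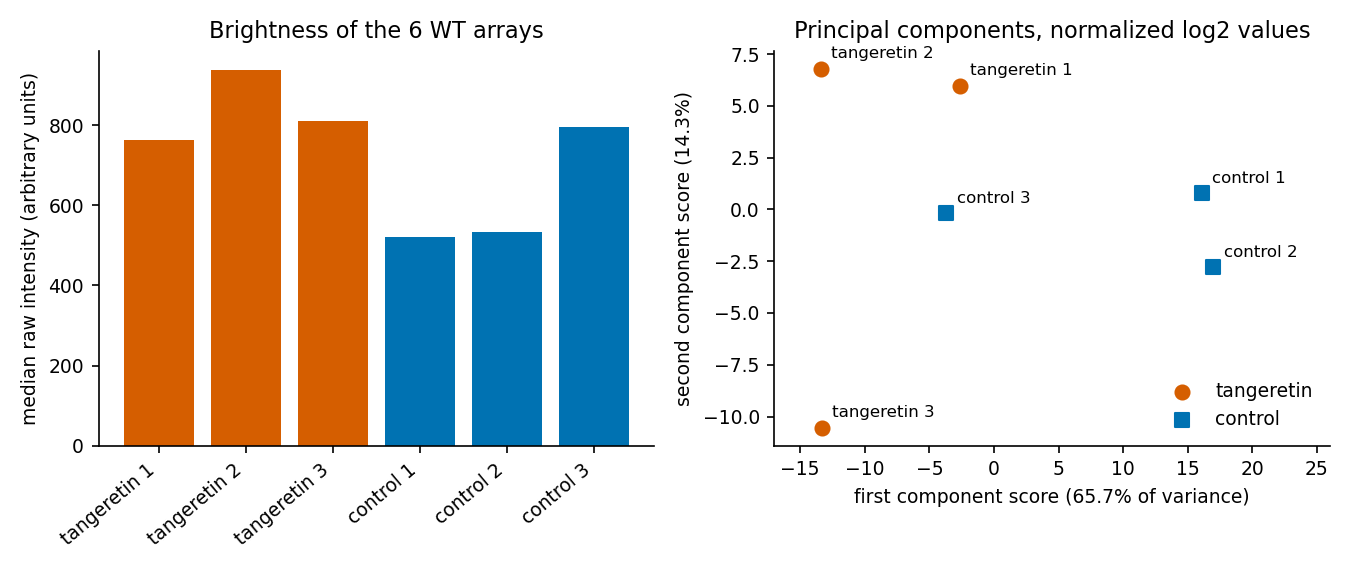
Median raw intensity in arbitrary units (left, bars, 1 per WT array) and scores on the 2 leading principal components of the normalized log2 values (right, circles for tangeretin, squares for control). Control 3, at 795.5, is as bright as the tangeretin arrays and lies beside them on the first component, while controls 1 and 2 are dimmer and lie apart.

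Few of the called genes differed by much. Of the 6211 genes, 231 (3.72%) were called, 135 higher (2.17%) and 96 lower (1.55%) with tangeretin, and 14 of them (0.225%) differed at least 2-fold, 11 higher (0.177%) and 3 lower (0.0483%). The median log2 change of all genes was -0.03. Changes over all genes ran from -1.94 to 1.85, and the genes at both ends were not called. The 3 tangeretin arrays did not overlap the 3 control arrays for 1502 genes (24.2%), 726 higher (11.7%) and 776 lower (12.5%). The calls were spread over the whole range of intensity: in 5 bins of about equal size, from the dimmest genes to the brightest, 22, 38, 22, 26 and 27 were called higher and 30, 23, 16, 12 and 15 lower.

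The count of calls rested on which control arrays were used. Without control 3 it was 1662, and without control 1 or control 2 it was 27 or 19. Without tangeretin array 1, 2 or 3 it was 336, 29 or 28. With brightness as a covariate 7 genes (0.113%) were called, all among the 231. Control 3 alone leaves 1 control array, which has no spread of its own, so only sizes of change are given for it. Control 3 was the control array nearest to the tangeretin mean for 125 of the 135 genes called higher and 90 of the 96 called lower, against 69.2% of all genes. Against control 3 alone, 4518 of the 6211 genes had the sign they had against all 3 controls, as did all 231 called genes, whose choice largely fixes that sign. The sizes of the called genes were smaller there, with a median log2 change of 0.64 for genes called higher, 0.44 with the covariate and 0.35 against control 3, and of -0.50, -0.37 and -0.33 for genes called lower. Unequal brightness and treatment are partly confounded in these arrays, and their shares in the 231 calls cannot be told apart.

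**Figure D2:**
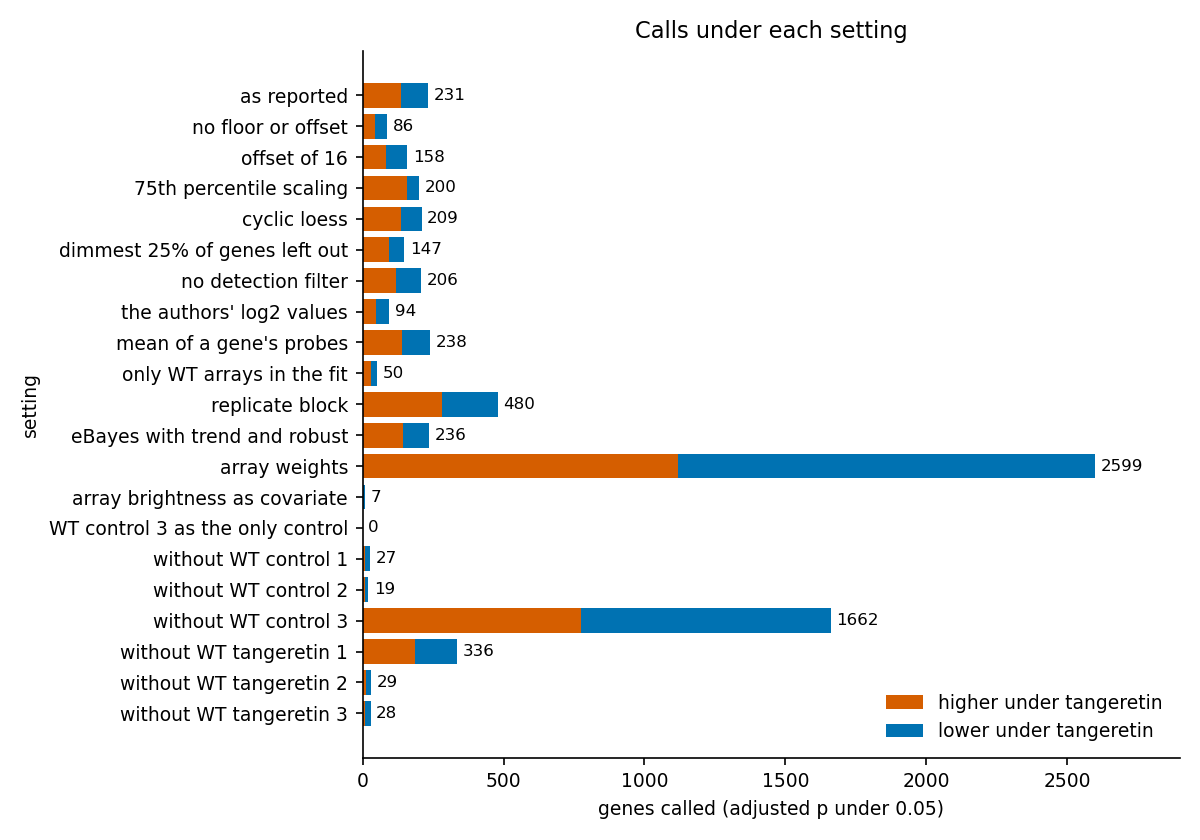
Number of genes called (horizontal axis) under each setting (rows), split into genes higher and lower with tangeretin. The count is 231 as reported, 1662 without control 3 and 7 with brightness as a covariate. The row for control 3 as the only control rests on 1 control array, so its count is not read.

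Called in all 6 fits that left out 1 WT array were 19 genes (0.306%), 7 higher (0.113%) and 12 lower (0.193%). These are the calls of the comparison that no single WT array decided. This choice favours genes for which control 3 lies with controls 1 and 2, since control 3 is 1 of 2 controls in some of these fits. The same 19 include all 7 genes called with brightness as a covariate.

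Among the falls, MGA1 (YGR249W), which encodes a protein similar to heat shock transcription factors and is linked to filamentous growth, changed most. Its normalized intensity was 320, 261 and 263 with tangeretin, against 755, 773 and 523 in controls. The groups did not overlap, and control 3 was the lowest control. The log2 change was -1.26 (SE 0.14, adjusted p = 0.00132, limma), -1.01 with brightness as a covariate (adjusted p = 0.0248) and -0.90 against control 3 alone.

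HSP30 (YCR021C), which encodes a stress-induced membrane protein that restrains the plasma membrane proton pump, measured 967, 949 and 1091 with tangeretin, against 2237, 2282 and 2165 in controls. Here the 3 controls lay close together, control 3 included. The change was -1.16 (SE 0.14, adjusted p = 0.00157, limma), -1.28 with the covariate (adjusted p = 0.0144) and -1.11 against control 3 alone.

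ITT1 (YML068W), whose product modulates translation termination, measured 151, 172 and 189 with tangeretin, against 336, 378 and 322 in controls. The change was -1.02 (SE 0.13, adjusted p = 0.00245, limma), with -1.11 with the covariate, where it was called, and -0.92 against control 3 alone. BSC1 (YDL037C), which encodes a protein resembling cell-surface flocculins, measured 186, 157 and 191 with tangeretin, against 364, 374 and 324 in controls, and had the lowest adjusted p of all genes named here (-0.997, SE 0.10, adjusted p = 0.00067, limma). TDA6 (YPR157W), of unknown function, measured 1511, 1294 and 1766 with tangeretin, against 2942, 3228 and 2720 in controls (-0.97, SE 0.12). BSC1 and TDA6 were also called with the covariate, at -0.86 and -0.78, and their changes against control 3 alone were -0.87 and -0.85. With MGA1, HSP30 and ITT1 they made up the 5 falls (0.0805% of genes) called with it.

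The other 7 falls called in all 6 fits were not called with the covariate. They include CMK2 (YOL016C), a calmodulin-dependent protein kinase, with 1881, 1847 and 1802 with tangeretin against 2989, 2915 and 2774 in controls. Each group spanned a narrow range, and the change was -0.65 (SE 0.09, adjusted p = 0.00309, limma), with -0.62 with the covariate and -0.59 against control 3 alone. HAP4 (YKL109W), the regulated subunit of the activator of respiratory genes, measured 7912, 7740 and 8312 with tangeretin against 12041, 11573 and 10892 in controls (-0.53, SE 0.08, with -0.47 with the covariate and -0.45 against control 3 alone). CIP1 (YPL014W), an inhibitor of cyclin-dependent kinase, measured 4774, 3897 and 3471 with tangeretin against 8197, 7962 and 6112 in controls (-0.88, SE 0.14, with -0.64 with the covariate and -0.61 against control 3 alone). The groups did not overlap for any of these 3 genes, and control 3 was the lowest control each time. The remaining 4 were JIP4 (-0.96), PRM7 (-0.71), YER158C (-0.60) and YKL070W (-0.58), the last detected on 2 tangeretin arrays and 1 control array. With the covariate these 4 genes had changes of -0.78, -0.64, -0.47 and -0.50, and against control 3 alone of -0.62, -0.50, -0.49 and -0.45, in the same order.

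PRM7 (YDL039C) and BSC1 (YDL037C) are near neighbours on chromosome IV, with YDL038C between them by systematic name. YDL038C measured 4254, 4343 and 4334 with tangeretin, against 6789, 6763 and 6097 in controls (-0.60, SE 0.10, adjusted p = 0.00634, limma), and its change was -0.46 with the covariate and -0.50 against control 3 alone. All 3 were lower with tangeretin, but PRM7 and BSC1 were named for their falls and YDL038C as their neighbour. Whether the 3 probes read separate transcripts was not tested.

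Among the rises, PDR5 (YOR153W), the main drug efflux pump, measured 9206, 10253 and 7912 with tangeretin, against 4032, 3485 and 4786 in controls. Every tangeretin array lay above every control array, 2.23-fold on average. The log2 change was 1.16 (SE 0.16, adjusted p = 0.0029, limma) and 0.92 against control 3 alone. With brightness as a covariate it was 0.91 and not called (adjusted p = 0.0998).

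RSB1 (YOR049C), which encodes a membrane protein that moves sphingoid long-chain bases, measured 227, 210 and 236 with tangeretin, against 115, 138 and 124 in controls. Its change hardly moved between the settings: 0.84 (SE 0.10, adjusted p = 0.00157, limma), 0.84 with the covariate (adjusted p = 0.0248) and 0.85 against control 3 alone. YGR035C, of unknown function, measured 2584, 2366 and 2979 with tangeretin, against 1556, 1639 and 1326 in controls. Control 3 was here the control farthest from the tangeretin arrays. The change was 0.81 (SE 0.11, adjusted p = 0.0029, limma), 1.00 with the covariate (adjusted p = 0.0107) and 0.99 against control 3 alone. RSB1 and YGR035C were the 2 rises (0.0322% of genes) called with the covariate.

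The other 4 rises called in all 6 fits were YET1, MRP4, CQD2 and YLR162W. YET1 (YKL065C), a protein of the endoplasmic reticulum, measured 2872, 3513 and 3507 with tangeretin, against 1410, 1245 and 1884 in controls (1.14, SE 0.17). MRP4 (YHL004W), a protein of the small mitochondrial ribosomal subunit, measured 588, 564 and 565 with tangeretin, against 277, 274 and 382 in controls (0.90, SE 0.14). For both, control 3 was the highest control. The change was 0.82 for YET1 and 0.69 for MRP4 with the covariate, and 0.80 and 0.58 against control 3 alone. CQD2 rose by 0.73, with 1 of 3 control arrays detected, and its change was 0.58 with the covariate and 0.55 against control 3 alone. YLR162W rose by 0.71, with 0.75 and 0.61 in those settings.

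**Figure D3:**
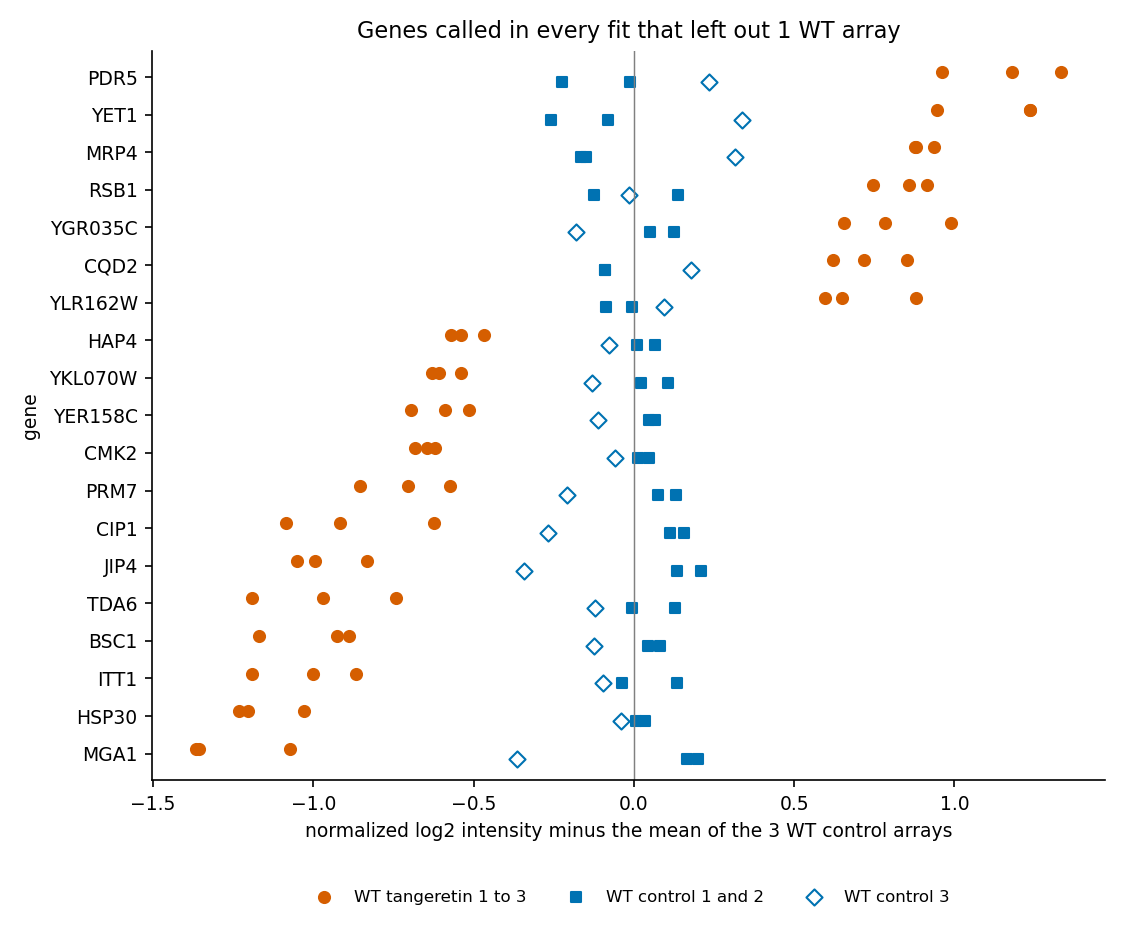
Normalized log2 intensity of each WT array minus the mean of the 3 control arrays (horizontal axis) for the 19 genes called in every fit that left out 1 WT array. Tangeretin arrays are circles, controls 1 and 2 filled squares and control 3 an open diamond. The groups do not overlap for any of the 19 genes, and the falls lie left of 0 and the rises right of it.

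The largest rise among the called genes was not among these 19. PRO3 (YER023W), which encodes the last enzyme of proline synthesis, measured 4849, 4972 and 4616 with tangeretin, against 1284, 1155 and 3006 in controls. Control 3 lay between the 2 dim controls and the tangeretin arrays. The change was 1.55 (SE 0.30, adjusted p = 0.0185, limma), 0.74 with the covariate and 0.68 against control 3 alone, and it was called in 2 of the 6 fits.

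The same order of arrays recurred in other large rises. VOA1 (YGR106C), which helps to assemble the vacuolar proton pump, measured 4209, 6300 and 4693 with tangeretin, against 1489, 1628 and 3928 in controls. AQR1 (YNL065W), a multidrug transporter of the plasma membrane, measured 632, 1088 and 878 with tangeretin, against 259, 327 and 604 in controls. VMA1 (YDL185W), the catalytic subunit of the vacuolar proton pump, measured 1184, 1558 and 1268 with tangeretin, against 520, 529 and 886 in controls. In all 3, the groups did not overlap and control 3 was the highest control. Their changes were 1.24, 1.19 and 1.09, and against control 3 alone 0.35, 0.49 and 0.58. YKT6, a membrane fusion SNARE, rose by 1.08, TMN3, a member of a family of membrane-spanning proteins, by 1.09, PBI2, an inhibitor of vacuolar proteinase B, by 1.05, and RPS3, a ribosomal protein, by 1.00, each called in 2 of the 6 fits. Against control 3 alone their changes were 0.55 for YKT6, 0.68 for TMN3, 0.59 for PBI2 and 0.60 for RPS3. YMR173W-A rose by 1.01 (0.46 against control 3 alone), but this reading frame overlaps DDR48, and the probe assigned to DDR48/YMR173W-A had a change of 0.08 and was not called.

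**Figure D4:**
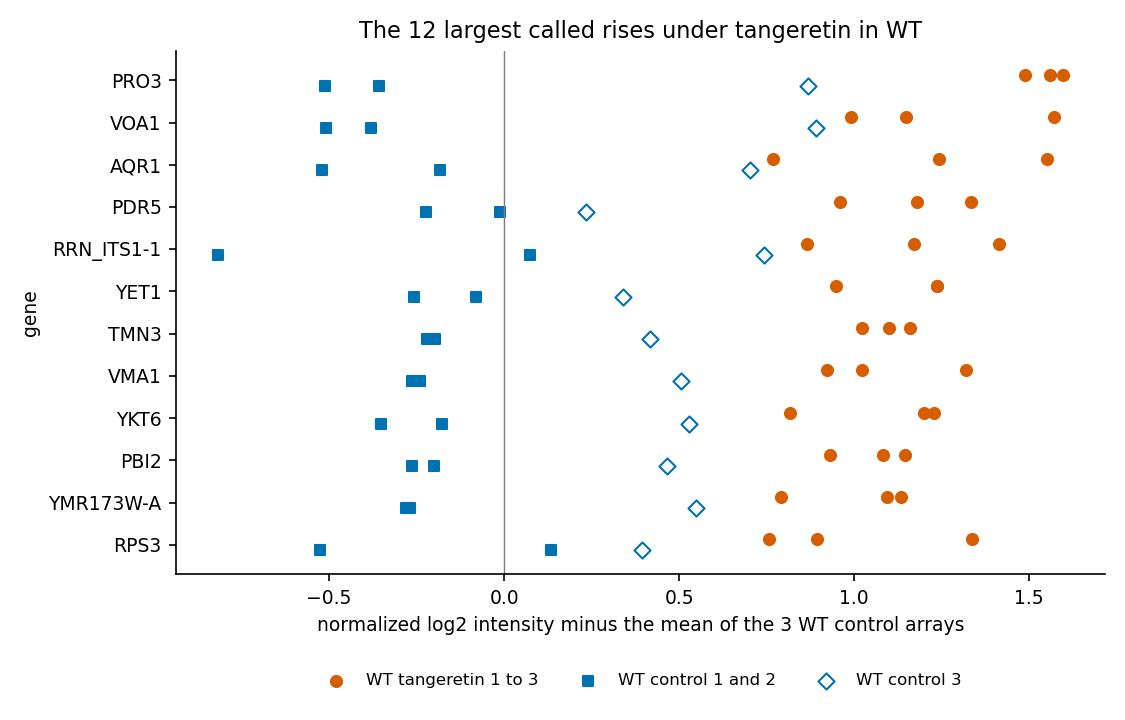
Normalized log2 intensity of each WT array minus the mean of the 3 control arrays (horizontal axis) for the 12 largest called rises whose groups did not overlap. For PRO3, VOA1, AQR1 and VMA1 control 3 (open diamond) lies between controls 1 and 2 (filled squares) and the tangeretin arrays (circles).

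For the gene lists that follow, the second value in parentheses after a called gene is its change against control 3 alone. Genes of the Pdr1 and Pdr3 network were called in 1 direction. Of 17 measured targets, 6 were called higher and 0 lower (35.3%, against 3.72% of all genes), and the groups did not overlap for 11 higher and 1 lower (11.7% and 12.5% of all genes). Like the lists below, this list was drawn up with earlier results of these data known. Its count is thus not independent evidence of its direction. Its median change was 0.28, against -0.03 for all genes, and it was 0.28 with brightness as a covariate and 0.26 against control 3 alone. Besides PDR5, RSB1 and YGR035C, the called members were the methylglyoxal reductase gene GRE2 (0.53, 0.50), the polyamine transporter gene TPO1 (0.48, 0.23) and the efflux pump gene YOR1 (0.46, 0.39). TPO1 measured 8886, 9715 and 9746 with tangeretin, against 6519, 5945 and 8061 in controls. YOR1 measured 4157, 4722 and 4343 with tangeretin, against 2922, 3313 and 3353 in controls. Of the members not called, the efflux pump genes PDR15 and SNQ2 had changes of 0.39 and 0.22, and PDR10 of -0.22. PDR3 itself had a change of 0.28 and PDR1 of -0.23, neither called.

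A list made up mostly of transporters that exchange drugs for protons had no common direction. It also holds the gene of an ATP-driven pump, PDR12, with a change of -0.23 that was not called. Of 13 measured, 2 were called higher, AQR1 (1.19, 0.49) and QDR3 (0.63, 0.43), and 1 lower, the probe shared by the polyamine transporter genes TPO2 and TPO3 (-0.48, -0.40). The share called was 23.1%, against 3.72% of all genes. The list's median change was -0.14.

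Of 21 genes for the vacuolar proton pump, which acidifies the vacuole, 4 were called higher and 0 lower (19.0%, against 3.72% of all genes): VOA1, VMA1, VMA10 (0.58, 0.25) and VMA11 (0.57, 0.21). The list's median was 0.04, so most members did not follow them. Each of the 4 was called in at most 2 of the 6 fits. Of 9 genes of proline metabolism, 2 were called higher, PRO3 and the breakdown gene PUT2 (0.44, 0.25), and 2 lower, the proline permease gene PUT4 (-0.52, -0.34) and CAR2 (-0.48, -0.43), an enzyme of arginine breakdown that feeds proline (44.4% called). None of the 9 measured genes of arginine synthesis was called.

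Of 122 ribosomal protein genes measured, 7 were called higher and 0 lower. This share of 5.74% is near the 3.72% called over all genes, and the list had a median of 0.08, which was 0.01 against control 3 alone. The called members include RPL24B (0.94, 0.69), RPL16B (0.89, 0.39) and the probe shared by RPL41A and RPL41B (0.84, 0.53). Such genes often occur as near-identical pairs, so a probe may read both copies. In ribosome biogenesis, 3 of 36 genes (8.33%) were called higher and 0 lower, among them NMD3 (0.76, 0.29), an export adaptor of the large subunit, and GAR1 (0.61, 0.51), which modifies ribosomal RNA. The proteasome, which degrades marked proteins, also had 3 of 31 genes (9.68%) called higher and 0 lower: PRE9 (0.86, 0.74), RPN3 (0.66, 0.37) and PRE3 (0.63, 0.25). PRE9 was called in 4 of the 6 fits. Histones had 2 of 10 (20%) called higher and 0 lower, HTB2 (0.38, 0.28) and the probe shared by HHF1 and HHF2 (0.60, 0.20), with a median of 0.25, which was 0.07 against control 3 alone. Of 20 genes for fatty acid and phospholipid synthesis 2 (10%) were called higher and 0 lower, CHO2 (0.54, 0.23) and OPI3 (0.69, 0.36), the enzymes that methylate phosphatidylethanolamine to phosphatidylcholine. OPI3 measured 13789, 15483 and 17236 with tangeretin, against 8910, 8219 and 11999 in controls.

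Of all genes, 1.55% were called lower. Of 24 chaperone genes under Hsf1, the heat shock factor, 0 were called higher and 3 (12.5%) lower: HSP42 (-0.60, -0.46), a small chaperone, and FES1 (-0.45, -0.41) and SSE2 (-0.44, -0.33), exchange factors for Hsp70. Of these 24, 12 had a change above 0 and 12 below it, and YDJ1, at 0.90, was not called (adjusted p = 0.0533, limma). HSF1, which the 24 include, had a change of -0.09. Of 24 genes of the general stress response under Msn2 and Msn4, 0 were called higher and 3 (12.5%) lower, the cell wall gene SPI1 (-0.61, -0.59), the nicotinamidase gene PNC1 (-0.58, -0.30) and the glutamate decarboxylase gene GAD1 (-0.46, -0.18). The list's median was -0.15, which was -0.07 against control 3 alone. Of 9 genes for factors resembling Hsf1 and for the HSP30 family, 2 (22.2%) were called lower, MGA1 and HSP30. This list was drawn up with earlier results for these 2 genes known, so its share is not independent evidence. Changes in it ran from -1.26 to 0.39, the latter for MRH1, which was not called.

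DNA damage and repair is the field in which Sgs1 acts. Of 20 genes induced by DNA damage, 0 were called higher and 2 lower (10%, against 3.72% of all genes), the photolyase gene PHR1 (-0.56, -0.26) and the nucleotide excision repair gene RAD16 (-0.50, -0.28). Of 24 genes for RecQ function, resolvases and recombination, 0 were called higher and 1 (4.17%) lower, RAD55 (-0.53, -0.29), a mediator of strand exchange. The damage reporters RNR3 and HUG1 had changes of -0.51 (adjusted p = 0.0597, limma) and -0.34, not called. SGS1 had a change of -0.11 and RMI1, its partner, of -0.11, neither called, and TOP3 was not detected on any control array. No gene was called in the lists for replication (25 genes), checkpoints (13) and ergosterol synthesis (26). Nor was any called for glycolysis and fermentation (21), the cell wall (27) or the unfolded protein response (16). In the ergosterol list, with a median of 0.02, IDI1 had a change of 1.55 that was not called (adjusted p = 0.197, limma).

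**Figure D5:**
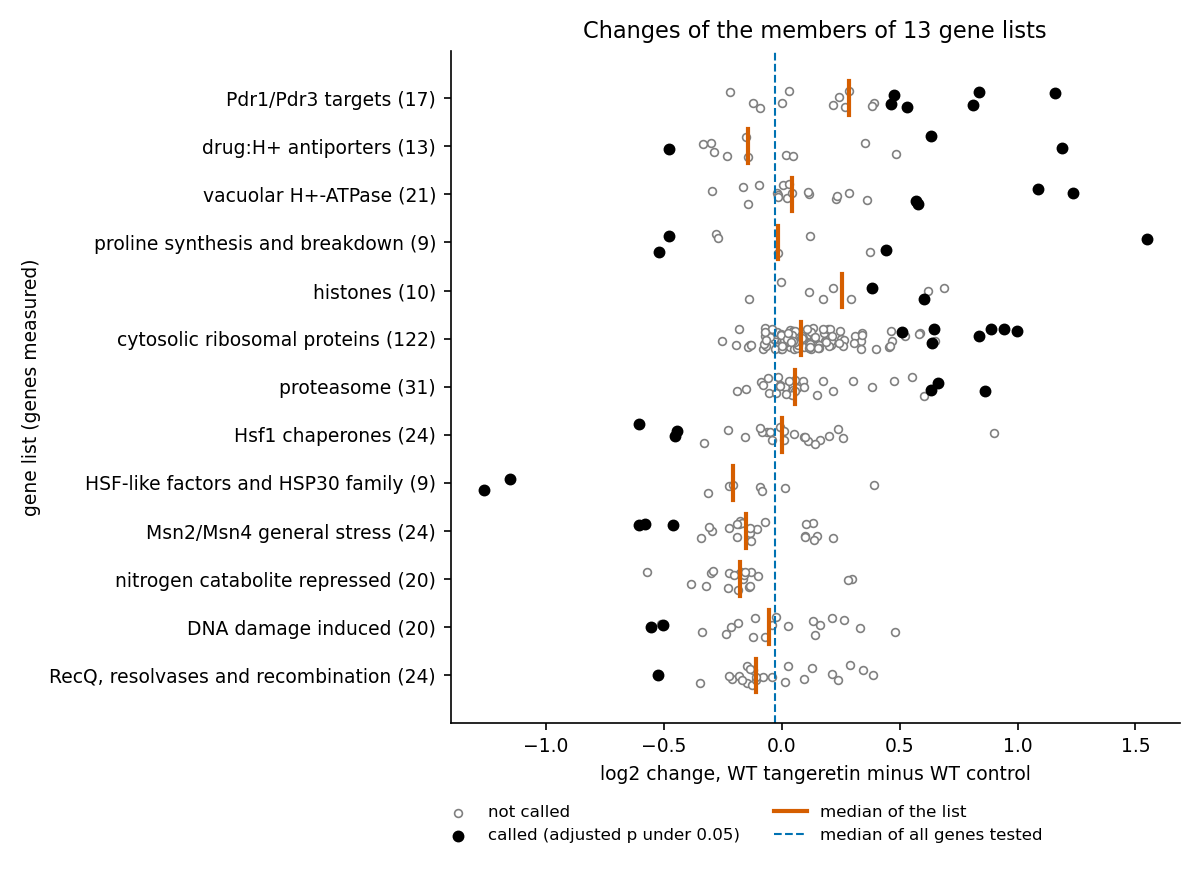
Log2 change, WT tangeretin minus WT control (horizontal axis), of each measured member of 13 gene lists (rows, number measured in parentheses). Filled points are called genes, open points are not called, orange bars are list medians and the dashed line is the median of all genes; 6 of the 17 Pdr1 and Pdr3 targets are called, all higher.

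The response was set against that of sgs1Δ cells, with which it shares no array. In sgs1Δ 92 genes (1.48%) were called, and the calls of both strains had 1 gene (0.0161%) with the same sign and 2 (0.0322%) with opposite signs. The 2 were ATP8, an ATP synthase gene of the mitochondrial genome (0.93 in sgs1Δ, -0.53 in WT), and VPS53, a subunit of a vesicle tethering complex (-0.51 in sgs1Δ, 0.47 in WT). VPS53 was named after its values were seen. PDR5 was the gene that rose in both: its change was 0.74 in sgs1Δ (adjusted p = 0.0365, limma) and 1.16 in WT, a difference of -0.42 that was not called. The difference of the responses was called for 25 of the 92 genes named by rule and for 92 of all genes (1.48%). Of the 92 named genes, 80 were called in WT, and that same WT change enters the difference. This choice favours a called difference, so the 25 cannot be read against the share over all genes. For HSP30 the change was 0.32 in sgs1Δ and -1.16 in WT, a difference of 1.47 (SE 0.20, adjusted p = 0.00417, limma). For MGA1 it was -0.16 in sgs1Δ and -1.26 in WT, a difference of 1.11. The sgs1Δ arrays were brighter than most WT arrays, with median raw intensities of 905 to 1507. With brightness as a covariate, 42 of the 92 named genes had a called difference. WT control 3 alone leaves 1 WT control array, so no count is given for it.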

How the data were processed

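Raw intensities, 1 column an array per the file headers, were deposited spot by spot together with scanner flags. The deposited flags are of another kind (no unit), and the value 0 was read as detected. Empty spots had a median of 0 to 1, so background had already been subtracted. The deposited value table holds log2 values that the authors normalized, by a method not given in the sources used here, and it served as an alternative. No genome build is named, and chromosomes come from RefSeq R64.

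Of 9800 spots, 2158 were empty and 514 were controls. Of 6958 probes, 266 whose target region is not stated were left out, and 279 were dropped as detected on fewer than 3 arrays, which left 6413 probes for 6211 genes. The brightest probe stood for each of 107 genes with several probes, and a probe assigned to several genes kept a joint name. An offset of 50 was added, arrays were quantile normalized, and all 12 arrays were fitted as 4 groups with lmFit and eBayes (limma 3.58.1, R 4.3.3; 8 residual degrees of freedom), without covariates. Two-sided p-values were adjusted by Benjamini-Hochberg over all genes. The number of arrays, 3 per group, limits the precision. The fit was also run on simulated data, with independent noise for each gene and array and no shared difference in brightness. That run cannot show how the fit behaves when arrays are unequally bright.

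Genes were named by rule: the 12 largest called rises and falls whose groups did not overlap, up to 4 called members of each of 52 lists, up to 12 rises and 12 falls also called with brightness as a covariate or in all 6 fits that left out 1 WT array, some chromosome neighbours and a short list of genes of interest. The members and lists were chosen with earlier results of these data known. Alternatives changed the offset, normalization, filters, input values, probe summary, arrays in the fit, replicate block, variance model, array weights and treatment of brightness.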

Additional observations from a re-analysis of the deposited data

Results flagged for a closer look

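The response to tangeretin differed between the strains for 25 of the 92 named genes, by the interaction term of the limma fit (response in sgs1Δ minus response in WT, log2). Of the 25, 24 were called in WT and HO was not. For genes called lower in WT the difference was positive. It was 1.47 for ATP8, 1.47 for HSP30, 1.26 for YOR053W, 1.24 for ITT1, 1.11 for MGA1 and 1.11 for YML099W-A. It was 0.91 for CIP1, 0.83 for TDA6, 0.82 for BSC1, 0.79 for SSE2, 0.75 for CMK2, 0.60 for YKL070W, 0.57 for YER158C and 0.53 for HAP4. ATP8 had a change of 0.93 in sgs1Δ and -0.53 in WT (adjusted p of the difference = 0.00326, limma).

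For genes called higher in WT the difference was negative. It was -1.79 for PBI2, -1.31 for RPL24B, -1.12 for YET1, -1.12 for RPN3 and -1.02 for MRP4. It was -0.81 for CQD2, -0.77 for BRX1, -0.76 for RPA14, -0.69 for YLR162W and -0.63 for RSB1. PBI2 had a change of -0.73 in sgs1Δ and 1.05 in WT (adjusted p of the difference = 0.0167, limma).

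HO, which is carried on the plasmid as well as on a chromosome, had a change of -0.69 in sgs1Δ and 0.47 in WT, a difference of -1.15 (adjusted p = 0.0124, limma). Most of these genes were named because they were called in WT, and that WT change enters the difference. This favours a called difference of the opposite sign, so neither the signs nor the count of 25 carry evidence of their own.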

How the results depend on the processing

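Of the 80 named genes called, none changed sign under any alternative that tested it. They were chosen as called in these same arrays, which largely fixes that sign. Of the 80, 73 lost their call with the covariate, 51 with only WT arrays in the fit and 37 with the authors' values. The 231 calls became 86 with no offset, 147 without the dimmest 25% of genes and 94 with the authors' log2 values. There were 50 calls with only WT arrays in the fit, 2599 with array weights and 7 with brightness as a covariate. Also requiring a 2-fold change left 14. For WT control 3 alone, a fit with 1 WT control array, only sizes of change are given. Leaving out 1 array gave 19 to 1662 calls: 27 and 19 without WT control 1 and 2, 1662 without WT control 3, 29 and 28 without WT tangeretin 2 and 3, and 147, 139 and 105 without sgs1Δ tangeretin 2, sgs1Δ tangeretin 3 and sgs1Δ control 3. The share of calls that were higher, 58.4% as reported, was 78% with 75th percentile scaling, 43.1% with array weights, 28.6% with the covariate and 28.6% to 61.2% with 1 array left out (28.6% to 55.4% for WT arrays). The 25 named genes with a called strain difference became 15 with no offset, 16 without the dimmest genes and 14 with the authors' values. They became 77 with array weights, 42 with the covariate and 5 to 55 with 1 array left out. The cause of these shifts was not tested. The replicate block gave 480 calls, all 231 among them, but replicate numbers did not pair the samples: same-numbered deviations correlated at 0.51, -0.299 and 0.224, and not every array correlated best with its own number. The block lost none of the 80 calls. Signal over background limits the dimmest genes: NDT80 was called with 0 control arrays detected, and no fold is given for it.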

Other observations

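Of all genes, 3.72% were called. Among genes for trace metals, IZH2, a membrane protein of zinc homeostasis, measured 814, 957 and 1020 with tangeretin, against 479, 420 and 517 in controls (0.98, SE 0.19, adjusted p = 0.0185, limma; 0.84 against control 3 alone), and it was the 1 called gene of 13 in the zinc list (7.69%). SIT1, a siderophore transporter, rose by 0.77 (0.30 against control 3 alone) and was the 1 called gene of 24 in the iron and copper list (4.17%). Of 21 amino acid permease genes, 0 were called higher and 2 (9.52%) lower, AGP1 (-0.35, with -0.34 against control 3 alone) and PUT4. MDH2, a cytosolic malate dehydrogenase, rose by 0.72 (0.33 against control 3 alone). Of 20 genes repressed by a good nitrogen source, 0 were called. Of the 20, 18 had a change below 0, as did 3451 of all 6211 genes. Their median was -0.18, which was -0.05 against control 3 alone.

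Averaged over the 3 arrays of each group, raw intensities were higher with tangeretin at every level of expression. Controls 1 and 2 had the lowest array medians, 522 and 533. Control 3, at 795.5, was brighter than tangeretin array 1, at 763.5. In 5 bins of genes, from the dimmest to the brightest, the median log2 ratio, tangeretin over control, was 0.27, 0.46, 0.39, 0.33 and 0.27. These ratios were taken after the offset of 50 was added to the raw intensities, which shrinks them most in the dimmest genes.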
